A study of Mus musculus with 12 samples.

Results

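The comparison described here sets mouse hepatocytes in which the coactivator YAP was active, by either of 2 genetic routes, against hepatocytes that carried only green fluorescent protein (GFP). It uses all 12 libraries of the series, 8 activated and 4 control, in 6 groups of 2. In the YAP experiment the control was Wild type mice given AAV2/8-TBG-GFP, an adeno-associated virus whose TBG promoter is active in hepatocytes. The activated mice were Sox9 fl/+ or Sox9 fl/fl and were given AAV2/8-TBG-Cre together with a virus for YAP S127A, GFP and the peptide P2A that separates them. YAP S127A lacks a serine through which the Hippo pathway holds YAP back. In the Mst experiment all mice carried floxed Mst1 (Mst1 fl/fl) and Mst2 (Mst2 fl/fl) alleles and the Cre reporter ROSA26-lsl-TdTomato. Their control received AAV2/8-TBG-GFP and kept both kinase genes, and the activated mice, which were also Sox9 fl/+ or Sox9 fl/fl, received AAV2/8-TBG-Cre. Injection was at 3 weeks of age. Hepatocytes negative for Epcam and CD45 were sorted 3 weeks later in the YAP experiment and 4 weeks later in the Mst experiment. Controls and YAP S127A cells were sorted on GFP, and the Mst mutant cells on TdTomato.

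The groups limit what can be read from the comparison. Every activated library received Cre and lost 1 or both Sox9 alleles, and no control received Cre, so that YAP activation, Cre and Sox9 deletion cannot be told apart. In the Mst experiment the fluorophore of the gate differs in the same way. Whether both libraries of a group are from different mice is not stated, so the p-values measure the spread between libraries, which may be technical.

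In the Hippo pathway, the kinases Mst1 and Mst2 (gene symbols Stk4 and Stk3) activate the kinases Lats1 and Lats2, which phosphorylate YAP and its paralogue TAZ and keep them out of the nucleus. Unphosphorylated YAP binds the TEAD transcription factors and raises genes such as Ctgf and Cyr61. In the liver, strong YAP activity is known for enlarging the organ and for giving hepatocytes features of bile duct and progenitor cells. Sox9 is a transcription factor of bile ducts and progenitors and a known gene downstream of YAP.

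Levels are log2 CPM (counts per library total, scaled and put on a log2 axis) from a panel that reads 1 amplicon per gene, and 10681 of 16116 genes had a value of at least 1 in at least 2 libraries. The depth of the libraries is unknown. Summed on the linear scale, the controls held 879620 to 920020 CPM and the activated libraries 938683 to 1011693, without overlap, and 9919 to 10005 genes against 10118 to 10392 reached a log2 value of 1. Gene by gene, the mean of the Wild type control equalled the mean of the floxed control to a median of 0.00849 log2, within 0.05 for 98.9% of genes. The table was therefore adjusted before it was deposited, by a step that the labels do not describe, and differences from the control of the same experiment are nearly differences from all 4 controls. Of the kept genes, 334 have the same value in both Wild type controls and 211 in both floxed controls, to a tolerance of 1e-06, so the spread that a test sees there is 0. These steps bear on every p-value below. Hepatocyte markers were high throughout: Alb, Ttr, Apoa1, Apob, Cps1, Hnf4a and Fgb lay between 8.98 and 16.03 in all 12 libraries.

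Markers of liver endothelium, which lines the sinusoids, were higher in every activated library than in every control, and this touches all the rises described here. The 17 kept of 18 listed endothelial markers summed to 41.0 to 106 CPM in the controls (median 63.5) and to 146 to 565 CPM in the activated libraries (median 429). Of the 17, 14 rose, 8 of them in all 4 activated groups, and 16 of 17 differences were above 0. Over all kept genes, 7109 of 10681 differences were above 0. Lyve1, a hyaluronan receptor, read 0.63, 0.79, 1.02 and 0.30 in the controls (the Wild type pair first, then the floxed pair, here and below) and 3.04, 3.68 and 3.99 as lowest, median and highest of the 8 activated libraries. Its pooled difference was 2.96 ± 0.21 log2 (SE, n = 8 against 4, 7.8-fold, adjusted p = 8.58e-07, limma). Eng, the TGF-beta coreceptor endoglin, read 1.17, 2.71, 2.48 and 1.26 against 2.93, 5.15 and 6.60. In these bulk samples, more cells of a type and more RNA per cell cannot be told apart.

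Other cell types were less separated. Macrophage markers summed to 25.2 to 83.5 CPM in controls and 50.3 to 341 in activated libraries, which overlap, and 0 of 11 kept genes passed the test in either direction (limma; 4 higher and 0 lower at an unadjusted p under 0.05). Stellate cell and fibroblast markers summed to 37.5 to 50.1 against 41.6 to 112 CPM, and 2 of 7 rose, Dcn by 1.59 and Rgs5 by 1.05 log2. Without either floxed control library 0 of the 7 rose, without the first Wild type control 1, and without the second Wild type control or the second YAP S127A Sox9 fl/+ library 4. Cholangiocyte markers summed to 112 to 128 against 150 to 281 CPM, but the sum includes Sox9, and the other 7 overlapped (92.3 to 119 against 111 to 219 CPM). Of the 8, 2 rose (1 or 2 when 1 library was dropped), and Aqp1, which endothelium also expresses, rose by 2.75 ± 0.43 log2. Among the defining keratins of cholangiocytes, Krt19 reached at most 1.53 and Krt7 at most 0.03 log2 in any library, and neither was kept. Markers of T and NK cells, B cells and neutrophils had 0 kept genes.

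**Figure D1:**
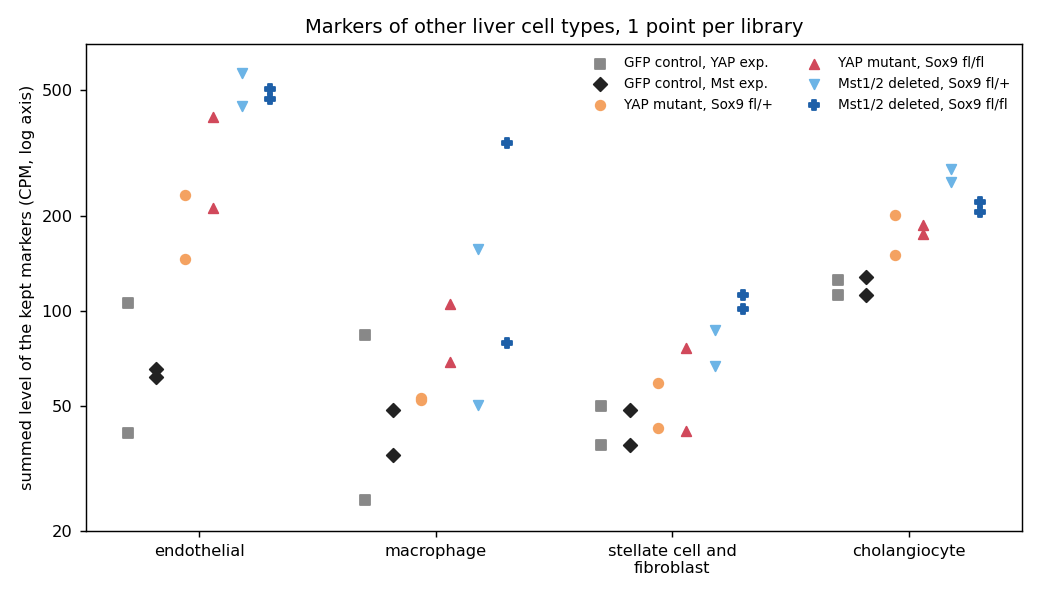
Summed level (CPM, log axis) of the kept markers of endothelium, macrophages, stellate cells and fibroblasts, and cholangiocytes, 1 point per library and 1 symbol per group. The 8 activated libraries lie above the 4 controls for the endothelial markers (146 to 565 against 41.0 to 106) and for the cholangiocyte markers (150 to 281 against 112 to 128, a sum that includes Sox9 and overlaps without it), and overlap them for the other 2 sets.

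With the log2 of the endothelial sum as a further term, an alternative chosen after seeing the data, 3 genes were called higher and 6 lower. The 3, all among the shared rises, were the transcription factor gene Sox4 (5.03 log2, adjusted p = 0.0156, limma), the osteopontin gene Spp1 (4.25, adjusted p = 0.0457) and Msrb3, a methionine sulfoxide reductase (3.09, adjusted p = 0.00271). Because that sum and activation do not overlap, the fit separates them poorly. Of the 217 genes that rose in all 4 groups, 205 kept a positive estimate in it, and of the 12 that fell, 11 kept a negative one. For the rises below, the part of endothelial RNA and that of the hepatocytes cannot be told apart.

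The altered genes were examined first. Sox9 read 3.90, 3.59, 4.33 and 3.13 log2 CPM in the controls and ran from 1.29 over a median of 3.52 to 6.47 in the activated libraries. It was above its control mean in both Sox9 fl/+ groups, by 1.10 (YAP S127A) and 2.50 (Mst), and below it in both Sox9 fl/fl groups, at -1.29 and -2.38. The pooled difference of -0.02 ± 0.89 is an average of these opposite values (adjusted p = 0.992, limma), and the test of differences among the 4 groups gave an adjusted p of 2.08e-05. Stk4 and Stk3 differed from control by -0.36 and 0.22 in the Mst Sox9 fl/+ group and by -0.56 and 0.31 in the Mst Sox9 fl/fl group. It is not known whether their amplicons lie in the deleted exons, so these values do not check the deletion. Yap1 differed by 0.91 and 1.19 in the YAP S127A groups and by -0.16 and 0.15 in the Mst groups, and its pooled difference of 0.53 ± 0.20 did not pass the test (adjusted p = 0.1).

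In the pooled fit, 1141 of 10681 genes were higher in the activated libraries (10.7%) and 133 were lower (1.25%). A gene is called shared here where it passed that test, where all 8 activated libraries lay beyond all 4 controls, and where each of the 4 group means differed from the control of its experiment by at least 1 log2, a doubling or halving. By this rule 217 genes were higher (2.03% of those tested) and 12 lower (0.112%). Just inside the threshold of 1 the smallest group difference was 1.02 for Iqgap1, and just outside it 0.9995 for Dock6 and 0.996 for the laminin gene Lamc1, with Myo1c short of 1 by less than the last digit of the value. For falls it was -1.01 for Sdr9c7, with Cryl1 outside at -0.84. All 8 activated libraries lay above all 4 controls for 705 genes (6.6%) and below them for 63 (0.59%), with or without a call. The median of all genes lay at 0.125, and when all library medians were set equal the median moved to -0.05 and the split of calls from 1141 against 133 to 753 against 353. All 217 and all 12 shared genes kept their sign and their call under that scaling. Leaving out the first floxed control library gave 696 higher and 48 lower, and leaving out the second YAP S127A Sox9 fl/+ library gave 208 lower.

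The shared rises were of unequal size in the 4 groups. Their median difference from control was 1.70 log2 in the YAP S127A Sox9 fl/+ group, 2.39 in YAP S127A Sox9 fl/fl, 1.88 in Mst Sox9 fl/+ and 2.35 in Mst Sox9 fl/fl, against medians of 0.07, 0.21, 0.08 and 0.17 over all genes tested. For 190 of the 217 genes the largest of the 4 differences belonged to a Sox9 fl/fl group, and for 198 the smallest belonged to a Sox9 fl/+ group. The matching counts over all genes were not taken. The medians over all genes were also higher in both Sox9 fl/fl groups. Whether these counts are particular to the shared rises was therefore not tested. Gene by gene, the differences among the 4 groups passed the test for 7 of the 229 shared genes, and for 45 of all 10681 (0.421%). The shared falls had medians of -1.43, -2.01, -1.97 and -2.42 in the same order. Since all 4 groups were set against nearly the same control values, their agreement in sign is fixed by the rule and is not a repeated observation.

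**Figure D2:**
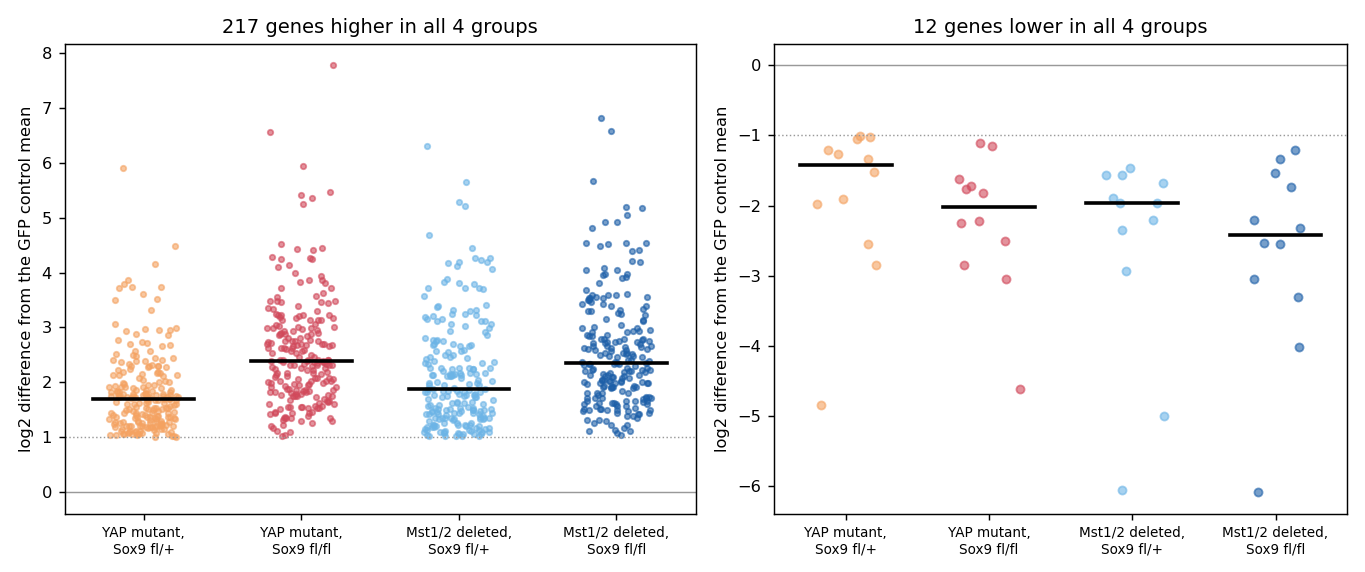
Difference of each activated group from the GFP control of its experiment (log2 scale) for the 217 shared rises (left) and the 12 shared falls (right), 1 point per gene, with black bars at the medians and dotted lines at the threshold of 1 log2. For the rises the medians are 1.70, 2.39, 1.88 and 2.35 from left to right.

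Direct targets of YAP and TAZ were higher as a group. Of 22 listed targets, 19 were kept, 9 rose, 5 of them in all 4 groups, and 1 fell, with a median difference of 1.03 against 0.125 over all genes. Ctgf, which encodes a secreted matricellular protein, read 0.58, 1.11, 0.90 and 0.73 log2 CPM in the controls and 4.73, 6.51 and 7.84 as lowest, median and highest of the activated libraries. No activated library came near a control. The difference was 5.53 ± 0.34 log2 (46.2-fold, adjusted p = 3.5e-07), with 4.49 and 4.53 in the YAP S127A groups and 6.30 and 6.80 in the Mst groups. Cyr61, its close relative, was already at 5.85, 5.90, 5.83 and 5.88 in the controls and reached 7.11, 8.42 and 9.85, a rise of 2.51 ± 0.33. Ajuba, a LIM protein that restrains Lats kinases, read 3.92, 4.13, 4.09 and 3.90 against 5.73, 7.15 and 7.65 and rose by 2.89 ± 0.25. Crim1, a transmembrane protein that binds BMPs, rose by 2.03 ± 0.21, and Amotl2, an angiomotin that binds YAP, by 1.67. Nuak2, Asap1, Tgfb2 and Lats2 rose by 1.25, 1.03, 0.96 and 0.60 without meeting the shared rule, and the target Ankrd1 had a difference of 0.68 that did not pass. Nt5e, the ectonucleotidase CD73, fell by 2.44 log2, a call lost without the first floxed control library.

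The promoters of 4 of these 5 shared targets were found in RefSeq's table (GRCm38.p6), and they are printed because each holds the core letters that TEAD factors recognise. The windows run from 250 bases before the annotated start to 50 after it, 5′ to 3′ on the gene's strand. Capitals mark GGAATG or its complement CATTCC. Cyr61 (named Ccn1 in RefSeq) lies on the minus strand at chr3:145649936-145650235, Ajuba on the minus strand at chr14:54577612-54577911, Amotl2 on the plus strand at chr9:102717554-102717853, and Crim1 on the plus strand at chr17:78199998-78200297.
Cyr61: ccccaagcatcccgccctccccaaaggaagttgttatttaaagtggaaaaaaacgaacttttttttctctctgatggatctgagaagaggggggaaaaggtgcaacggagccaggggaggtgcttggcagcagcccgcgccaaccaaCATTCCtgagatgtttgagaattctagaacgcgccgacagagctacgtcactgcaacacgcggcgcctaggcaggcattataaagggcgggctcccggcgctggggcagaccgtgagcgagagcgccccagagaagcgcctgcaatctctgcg
Ajuba: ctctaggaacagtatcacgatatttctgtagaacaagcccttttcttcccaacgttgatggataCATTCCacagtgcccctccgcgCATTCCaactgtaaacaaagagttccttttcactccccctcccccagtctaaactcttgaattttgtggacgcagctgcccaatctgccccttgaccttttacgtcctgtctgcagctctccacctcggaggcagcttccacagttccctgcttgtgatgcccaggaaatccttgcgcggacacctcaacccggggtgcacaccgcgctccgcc
Amotl2: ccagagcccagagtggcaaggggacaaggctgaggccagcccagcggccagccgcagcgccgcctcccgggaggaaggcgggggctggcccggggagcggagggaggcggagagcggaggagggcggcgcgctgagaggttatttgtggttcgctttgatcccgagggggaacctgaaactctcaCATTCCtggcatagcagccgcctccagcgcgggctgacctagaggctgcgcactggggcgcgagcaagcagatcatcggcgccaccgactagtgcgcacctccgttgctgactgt
Crim1: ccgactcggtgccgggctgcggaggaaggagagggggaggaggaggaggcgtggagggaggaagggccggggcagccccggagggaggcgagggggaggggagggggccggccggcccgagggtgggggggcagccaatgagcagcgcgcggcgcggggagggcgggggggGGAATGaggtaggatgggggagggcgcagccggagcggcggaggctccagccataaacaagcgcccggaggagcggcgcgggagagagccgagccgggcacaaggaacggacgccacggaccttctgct
The match begins 103 bases before the start site in Cyr61, 186 and 164 bases before it in Ajuba, 65 in Amotl2 and 79 in Crim1.

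Among the 15 largest shared rises, 8 had a window and 3 of these held the motif: Sox4, Nid1 and Ahnak. Sox4 and Nid1 are shown because they had the largest rises of the 3. Sox4 lies on the minus strand at chr13:28953650-28953949, with the match 168 bases before the start. Nid1 lies on the plus strand at chr13:13437352-13437651, with the match 165 bases before it.
Sox4: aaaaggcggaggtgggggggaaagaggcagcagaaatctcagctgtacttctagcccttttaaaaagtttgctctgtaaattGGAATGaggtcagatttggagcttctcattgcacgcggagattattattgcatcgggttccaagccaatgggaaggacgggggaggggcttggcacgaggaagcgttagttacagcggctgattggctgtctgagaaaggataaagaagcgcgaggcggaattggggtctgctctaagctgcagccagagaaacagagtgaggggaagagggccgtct
Nid1: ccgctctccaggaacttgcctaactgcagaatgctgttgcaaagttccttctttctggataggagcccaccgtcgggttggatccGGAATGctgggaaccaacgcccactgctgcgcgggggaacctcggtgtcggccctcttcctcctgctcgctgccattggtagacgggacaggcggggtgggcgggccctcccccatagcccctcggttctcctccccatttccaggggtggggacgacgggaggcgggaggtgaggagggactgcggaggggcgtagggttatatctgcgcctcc
Across all 217 shared rises, 164 matched the table by symbol, and 39 of their 214 windows (18.2%) held GGAATG on either strand, against 1317 of 10952 windows of kept genes and 4817 of all 32851 windows (14.7%). The shared falls had it in 3 of 12 windows (25.0%). The AP-1 motif TGANTCA was in 7.01% of windows of the rises, 5.09% of kept genes and 7.81% of all windows. A match says only that the letters are there.

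Components of the Hippo pathway itself moved in part. Of 25 listed, 23 were kept, 7 rose and 0 fell (limma; 1 lower at an unadjusted p under 0.05), with a median of 0.26. Those that met the shared rule were Tead1, a DNA-binding partner of YAP, which rose by 1.46 ± 0.29 log2, the protocadherin Dchs1, a ligand of the receptor Fat4, by 1.59 ± 0.30, and the LIM protein Wtip by 1.76 ± 0.35. Dchs1 and Wtip were near the floor in the controls, at -0.36, -0.04, -0.41 and -0.01 and at 0.45, -0.05, 0.32 and 0.14. Tead4, the angiomotins Amot and Amotl1 and the scaffold Wwc1 rose by 1.73, 1.38, 1.71 and 1.40. Tead4 and Amotl1 were also near the floor in the controls, at means of -0.05 and 0.38. Tead4 differed by 1.75 and 3.78 in the YAP S127A groups and by 0.42 and 0.955 in the Mst groups. The test among groups did not pass for it (adjusted p = 0.116, limma). Among core kinases and adaptors, Lats1 (0.00), Sav1 (-0.08), Mob1a (-0.09) and Nf2 (0.03) did not pass, and Lats2, counted with the targets above, rose by 0.60.

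Bile duct and progenitor genes rose in all 4 groups for part of their list and in the pooled fit for most of it. Of 27 listed, 20 were kept, 14 rose, 6 in all 4 groups, and 0 fell (limma; 0 lower at an unadjusted p under 0.05), with a median of 1.12. Sox4, a Sox-family transcription factor of progenitors, read 2.07, 1.49, 1.62 and 1.92 in the controls and 5.23, 6.89 and 7.45 in the activated libraries. It rose by 4.97 ± 0.29 (31.5-fold, adjusted p = 3.5e-07), by 4.16, 5.35, 5.21 and 5.18 in the 4 groups. Spp1 read 8.16, 6.78, 7.37 and 7.45 against 10.15, 11.39 and 11.85, a rise of 3.71 ± 0.28. Both genes lay apart from control in every group, with 1 or both Sox9 alleles lost, as the shared rule requires. Bicc1, an RNA-binding protein whose loss gives cystic kidneys, rose by 4.10 ± 0.35, Pkhd1, the gene of a cilium-associated protein in ducts, by 2.21, and the glucose transporter Slc5a1 by 2.33 ± 0.29. The remaining shared member, Aqp1, which endothelium also expresses, rose by 2.75 ± 0.43. It gave -0.3337 with the endothelial term, while Sox4, Spp1, Bicc1 and Slc5a1 gave 5.025, 4.251, 2.916 and 2.071. Of these, Sox4 and Spp1 passed. Krt23, Prom1, Krt18 and Krt8 rose by 2.58, 1.50, 1.12 and 0.91 in the pooled fit alone. Krt8 already had a control mean of 8.70, and Krt18 a higher one. Cd24a, Cldn4, Ehf and Tspan8 had differences of 0.68, 0.35, 0.09 and 0.08 that did not pass. Epcam, against which the cells were sorted, had a difference of 0.70 ± 0.30 that did not pass (adjusted p = 0.156), with 1.81 in the YAP S127A Sox9 fl/+ group and 0.01 in the Mst Sox9 fl/fl group.

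Genes of fetal liver and liver tumours included the largest rise by fold. Of 21 listed, 15 were kept, 7 rose, 5 in all 4 groups, and 0 fell (limma; 0 lower at an unadjusted p under 0.05), with a median of 0.79. Gpc3, a heparan sulfate proteoglycan of fetal liver and hepatocellular carcinoma, read -0.94, -0.51, -0.80 and -0.65 in the controls and 3.42, 4.59 and 7.36 in the activated libraries. The groups did not overlap, and the difference of 5.83 ± 0.49 (56.7-fold) depends on control values near the floor of the table. Spink1, a trypsin inhibitor, read 2.59, 1.48, 2.02 and 1.99 against 5.01, 6.53 and 8.44 and rose by 4.55 ± 0.45. H19, an imprinted noncoding RNA, rose by 4.05 ± 0.61 with group differences of 3.73, 6.55, 2.40 and 3.54, which differed among groups (adjusted p = 0.00343). Ly6d, a GPI-anchored surface protein, rose by 3.77 ± 0.48. Afp, the classical fetal albumin relative, had a difference of 0.28 that did not pass, and Igf2bp3 one of 0.57.

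**Figure D3:**
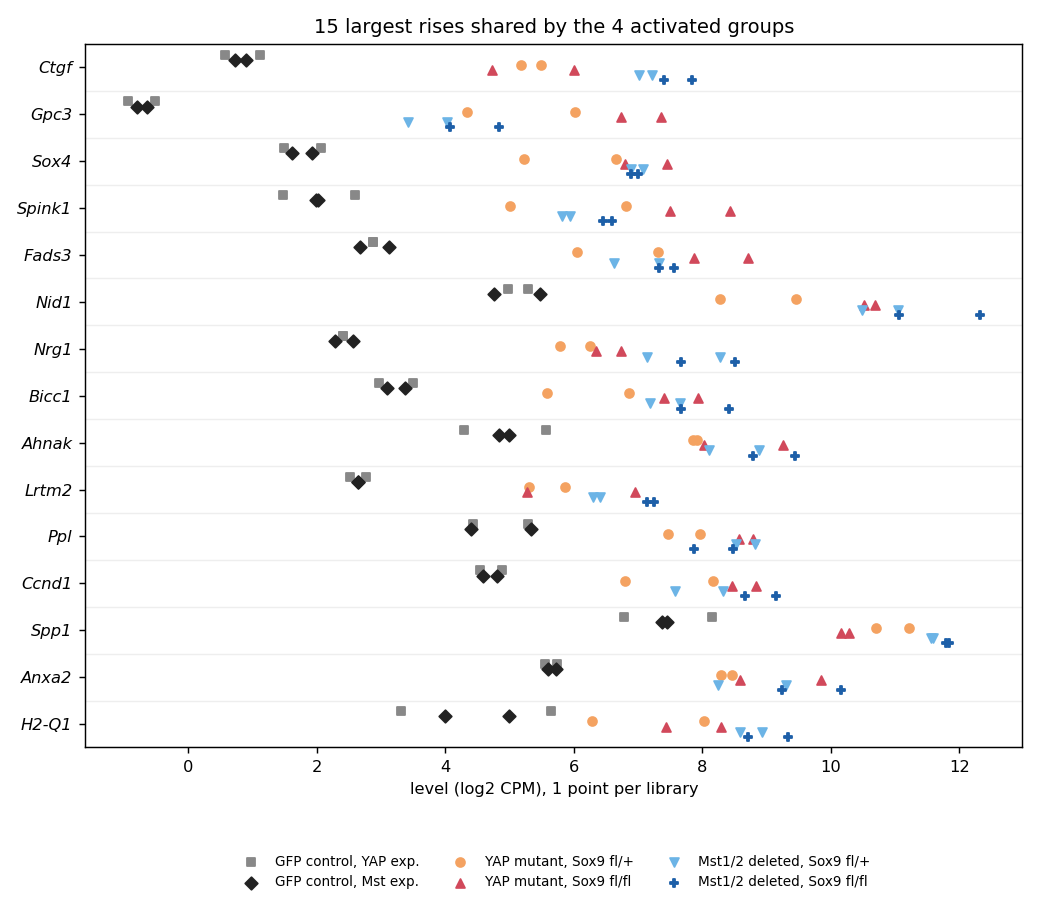
Level (log2 CPM) in each of the 12 libraries for the 15 genes with the largest shared rise and a mean of at least 4 log2 CPM in the activated libraries, 1 point per library. For every gene the 8 activated points lie to the right of the 4 control points, as the rule requires, from Gpc3 (control -0.94 to -0.51) to Spp1 (control 6.78 to 8.16).

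Growth factors and their receptors rose in number but, with 1 exception, not by the shared rule. Of 25 listed ErbB and growth factor genes, 22 were kept, 11 rose and 0 fell (limma; 1 lower at an unadjusted p under 0.05), with a median of 0.66. The exception was Nrg1, a ligand of ErbB3 and ErbB4, which read 2.41, 2.41, 2.56 and 2.28 in the controls and 5.78, 6.94 and 8.51 in the activated libraries. It rose by 4.67 ± 0.31 (25.5-fold, adjusted p = 4.53e-07), by 3.61 and 4.13 in the YAP S127A groups and 5.29 and 5.67 in the Mst groups. Other ErbB ligands rose less, Hbegf by 1.04, Tgfa by 0.87 and Btc by 0.87, while Areg had 0.34, not past the test. Of the ErbB receptors, Egfr (-0.02), Erbb3 (0.16) and Erbb4 (0.52) did not pass, while the receptors Fgfr2 and Fzd7 rose by 0.80 and 1.05. Csf1, the macrophage growth factor, rose by 1.50 on average and unequally (0.70, 2.47, 1.37 and 1.48 in the 4 groups, adjusted p among groups = 0.0124, limma), and the platelet-derived factors Pdgfa, Pdgfb and Pdgfc by 1.23, 1.13 and 1.15.

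In the TGF-beta and BMP list, 19 of 22 genes were kept, 7 rose, 3 of them in all 4 groups, and 0 fell (limma; 0 lower at an unadjusted p under 0.05), with a median of 0.73. Bmp4, a BMP ligand, was among the most even shared rises: it read 2.21, 1.26, 1.38 and 2.12 against 3.55, 4.33 and 4.66, and its 4 group differences of 2.28, 2.63, 2.58 and 2.37 span 0.35. Id1, a BMP-induced inhibitor of helix-loop-helix factors, rose by 2.29 ± 0.30, and the ligand gene Tgfb1 by 1.74 ± 0.30. Of the 6 kept Notch genes, out of 15 listed, 4 rose and none met the shared rule. Without the first floxed control library, 3 of the TGF-beta and 2 of the Notch genes rose. The 4 were the ligands Jag1 (1.53) and Dll4 (1.27), the receptor Notch1 (1.36) and the target Hes1 (1.45). Endothelium also expresses Bmp4, Id1, Tgfb1, Dll4 and Notch1, and the endothelial markers rose in the same libraries with a median of 2.38. With the endothelial term Bmp4, Id1 and Tgfb1 gave 2.69, 2.75 and 0.24. None of these passed (adjusted p of 0.22, 0.379 and 0.999, limma).

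Matrix and basement membrane genes rose in 10 of 24 kept cases (of 30 listed), 4 in all 4 groups, and 0 fell (limma; 0 lower at an unadjusted p under 0.05), with a median of 0.95. Without the second Wild type control 6 rose. Nid1, nidogen, which links laminin to collagen IV, read 4.97, 5.29, 4.76 and 5.48 in the controls and 8.27, 10.60 and 12.32 in the activated libraries. Its rise of 5.35 ± 0.44 (40.9-fold) ran from 3.73 in the YAP S127A Sox9 fl/+ group to 6.57 in the Mst Sox9 fl/fl group. The laminin chains Lamb2 and Lama5 rose by 3.01 ± 0.36 and 1.98 ± 0.36. Sparc, a collagen-binding protein, rose by 2.79 ± 0.37. With the endothelial term none of these 4 passed, at 0.16 for Sparc, 0.96 for Lama5, 2.32 for Lamb2 and 2.85 for Nid1 (adjusted p of 0.999, 0.996, 0.719 and 0.431, limma). Fibrillar collagens gave 1.33 (Col1a1), 0.79 (Col3a1) and 0.56 (Col1a2), none past the test.

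Genes of the actin cytoskeleton and of adhesion rose in 14 of 30 kept cases (of 39 listed), 5 in all 4 groups, and 0 fell (limma; 0 lower at an unadjusted p under 0.05), with a median of 0.62. Anxa2, a calcium-dependent membrane protein, read 5.73, 5.55, 5.72 and 5.60 against 8.25, 8.91 and 10.17, a rise of 3.37 ± 0.31. Flna, the actin crosslinker filamin A, rose by 2.95 ± 0.36, the kinase Pak6 by 2.77 ± 0.32, galectin-1 (Lgals1) by 2.43 ± 0.29 and Anxa5 by 2.38. Vim, the intermediate filament of mesenchymal and endothelial cells, rose by 1.47 in the pooled fit. Outside any list, Ahnak, a giant membrane scaffold, rose by 3.61 ± 0.30 and the desmosomal plakin gene Ppl by 3.45 ± 0.26, from 4.43, 5.29, 4.41 and 5.33 to 7.46, 8.50 and 8.82. Lrtm2, a leucine-rich transmembrane protein, read 2.52, 2.77, 2.65 and 2.65 against 5.26, 6.35 and 7.24 and rose by 3.66 ± 0.30. H2-Q1, a nonclassical MHC class I gene, rose by 3.72 ± 0.44 from widely spread controls (5.65, 3.31, 4.99 and 3.99), and its near-identical relatives may share its reads.

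Most mitotic genes rose, and most of the G1/S list did not pass. Of 32 listed G2/M and mitosis genes, 31 were kept, 25 rose and 16 met the shared rule, with a median of 2.02. A difference above 0 was found for 31 of 31, against 7109 of 10681 over all kept genes. Ccna2, cyclin A2, read 1.72, 3.69, 2.84 and 2.57 in the controls and 4.73, 6.01 and 7.34 in the activated libraries, a rise of 3.34 ± 0.40. Cdc20, the activator of the anaphase-promoting complex, rose by 3.07 ± 0.40, Kif20a by 2.58 ± 0.37 and Ccnb2 by 2.46 ± 0.36. Plk1, Cenpf, Birc5 and Cdk1 rose by 2.35, 2.46, 2.11 and 2.06. In the DNA replication and G1/S list 6 of 30 kept genes rose and 1 fell, with a median of 0.46. The 6 became 3 without the second Wild type control, and 10 without the second YAP S127A Sox9 fl/+ or the first Mst Sox9 fl/+ library. The D-type cyclin Ccnd1 led that list: it read 4.88, 4.54, 4.81 and 4.59 against 6.80, 8.39 and 9.15 and rose by 3.54 ± 0.33 (11.7-fold). Uhrf1 and Rrm2 rose by 1.58 and 1.57, while Mcm2 and Mcm5 gave 0.61 and 0.47, not past the test, and Mcm10 fell by 2.30. The labels do not say which cells of the sort were dividing.

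By list, 0.0% to 45.0% of the kept stress and inflammatory genes rose, against 10.7% of all genes tested. Of 21 kept p53 and apoptosis genes, 8 rose (4 without the second Wild type control or the first floxed control, 5 without the first YAP S127A Sox9 fl/fl library), with Eda2r (1.51 ± 0.33) and Gtse1 (1.33 ± 0.27) meeting the shared rule, and Cdkn1a rose by 1.02. Of 20 kept chemokine and cytokine genes, 9 rose, 5 in all 4 groups, and 1 (Il18) fell, a call lost without the second Wild type control or either floxed control. Tnfaip3, an inhibitor of NF-kappaB signalling, read 3.75, 3.06, 3.32 and 3.44 against 4.67, 5.53 and 6.06 and rose by 2.07 ± 0.21. Icam1, an adhesion molecule for leukocytes, rose by 1.81 ± 0.18, the TWEAK receptor Tnfrsf12a by 1.72 ± 0.25 and the chemokine Cx3cl1 by 1.91 ± 0.31, the last with 1 identical value, 1.64, in all 4 controls. Among 22 kept interferon and MHC class I genes, 3 rose (13.6%, 2 to 4 genes when 1 library was dropped). Of these Ifit2 met the shared rule, rising by 2.78 ± 0.34. Irf7 and Igtp fell, 0 to 2 of these falls being left when 1 library was dropped. Of 23 kept immediate early genes 4 rose (17.4%, 2 to 5 genes when 1 library was dropped). Jun had a difference of -0.06 that did not pass. For Fos and Egr1 the pooled differences of -0.04 and -0.39 average unequal groups: Fos gave 0.38, -2.19, 0.84 and 0.79 (adjusted p among groups = 0.033, limma) and Egr1 -0.44, -3.11, 1.11 and 0.89 (0.000113), lowest in both cases in the YAP S127A Sox9 fl/fl group. None of the 24 kept acute phase genes passed (limma; 4 higher and 0 lower at an unadjusted p under 0.05).

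Falls included genes of the pericentral zone, the hepatocytes around the central vein that make glutamine and depend on Wnt signals. Of 35 listed pericentral genes, 33 were kept, 9 fell, 3 in all 4 groups, and 0 rose (limma; 1 higher at an unadjusted p under 0.05). The median was -0.78, and 29 of 33 differences were below 0, whereas 7109 of 10681 over all kept genes were above 0. Slc1a2, a glutamate transporter, read 5.98, 6.88, 6.49 and 6.35 in the controls and 0.17, 1.66 and 5.26 in the activated libraries. All 8 lay below the controls, and the Mst libraries lay below the YAP S127A libraries. Its difference was -4.29 ± 0.57 (19.6-fold lower, adjusted p = 0.000208), with -1.97 and -3.05 in the YAP S127A groups and -6.05 and -6.09 in the Mst groups (difference among groups, adjusted p = 0.0329).

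Glul, glutamine synthetase, read 7.60, 8.47, 8.19 and 7.85 in the controls against 4.86, 5.68 and 6.95, and fell by 2.29 ± 0.31. Lhpp, a histidine phosphatase, read 4.95, 5.37, 4.83 and 5.50 against -0.06, 1.59 and 4.22, a change of -3.11 ± 0.52 that ranged from -1.21 to -5.002 over the groups. In the YAP experiment alone Slc1a2, Glul and Lhpp did not pass (adjusted p of 0.0691, 0.101 and 0.197, limma). In the Mst experiment alone they did (1.5e-05, 0.0015 and 0.000897, limma). Of the 12 shared falls, 2 were called in the YAP experiment alone and 10 in the Mst experiment alone. For the 217 shared rises the counts were 107 and 176. Oat, ornithine aminotransferase, fell by 3.49 ± 0.58 in the pooled fit, but its YAP S127A Sox9 fl/+ libraries overlapped the controls, 7.67 as the highest activated value against 7.60 as the lowest control. Lgr5, a receptor that strengthens Wnt signals, Gulo, which makes the last step to vitamin C, Lect2, Cyp2c29 and Cyp1a2 fell by 1.72, 1.61, 1.54, 1.34 and 1.06. Cyp2e1 and Cyp7a1, the first enzyme of bile acid synthesis from cholesterol, had values of -1.59 and -0.98 that did not pass, and the Wnt targets Axin2 and Tbx3 -0.40 and -0.30.

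**Figure D4:**
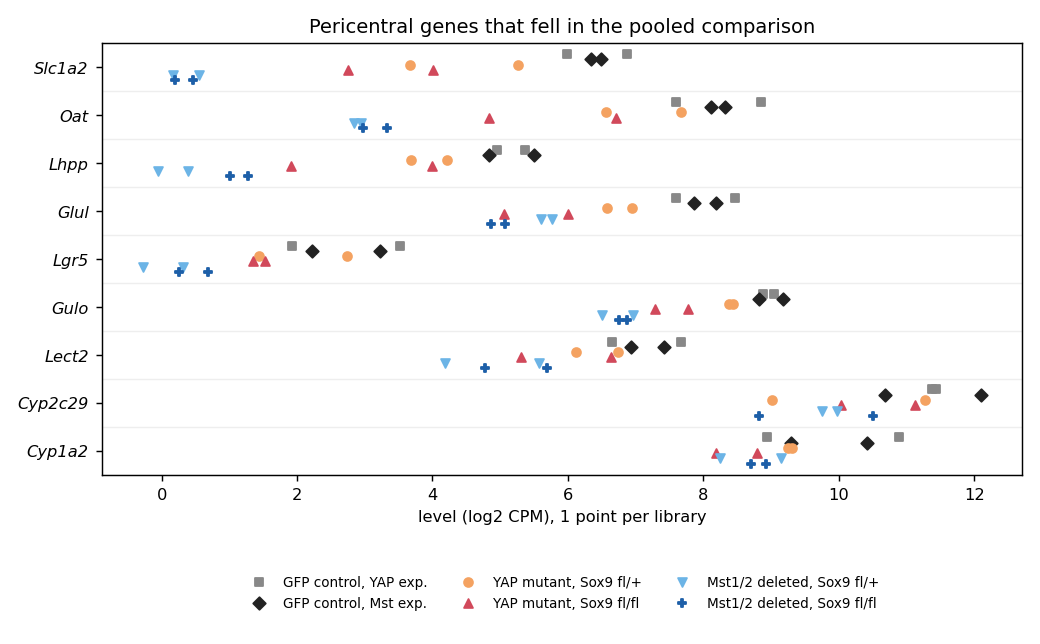
Level (log2 CPM) in each of the 12 libraries for the 9 pericentral genes that fell in the pooled comparison, 1 point per library. Slc1a2, Lhpp and Glul have all 8 activated points below the 4 controls, and so has Gulo, which missed the size condition, whereas for Oat, Lgr5, Lect2, Cyp2c29 and Cyp1a2 some activated points reach the controls.

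Beyond the pericentral list, Nnmt, which methylates nicotinamide, read 4.90, 6.27, 5.77 and 5.09 against 2.86, 3.49 and 4.69 and fell by 1.88 ± 0.32 in a similar way in all groups (-1.52, -2.25, -1.46 and -2.31). Npr2, the receptor of C-type natriuretic peptide, fell by 1.48 ± 0.18, and Sdr9c7, a short-chain dehydrogenase, by 1.38 ± 0.28. Cyp2c39 fell more in the YAP S127A groups, -4.85 and -4.61, than in the Mst groups, -1.57 and -1.20, but the test among groups did not pass (adjusted p = 0.391). The remaining shared falls had lower levels: the sulfotransferase Sult5a1 (-2.98), Mmd2 (-2.17), the T-cell kinase Zap70 (-2.02), the glypican Gpc1 (-1.91) and Fam46c (-1.33). Of 36 kept cytochrome P450 genes of drug metabolism, 6 fell (16.7%) and 3 rose (8.33%), with a median of -0.48. Over all genes tested 1.25% fell and 10.7% rose. Both counts of P450 genes were 1 without the first floxed control. Without the second YAP S127A Sox9 fl/fl library or any single activated Mst library, 3 P450 genes fell. Periportal genes, of the opposite zone, fell in 3 of 28 cases (10.7%), Sds by 1.53, Aldh1b1 by 0.87 and Asl by 0.82. In that list 1 gene rose (3.57%), Pigr by 0.96, and the median was -0.30. The 3 falls became 0 without the second Wild type control or the first floxed control and 6 without the second YAP S127A Sox9 fl/+ library, and the rise became 0 without the first Wild type control. Male-biased liver genes fell in 6 of 22 cases, among them Hsd3b5 by 2.03 and Cyp7b1 by 1.61. Without either floxed control library 0 of the 22 fell, without the first Wild type control 2, and 3 without the second Wild type control, the second Mst Sox9 fl/+ or the first Mst Sox9 fl/fl library. The sex of the mice is not given in the labels used here.

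Of 30 kept liver transcription factors, Cebpd and Nr1i3 fell by 1.11 and 1.06 and 0 rose (limma; 6 higher at an unadjusted p under 0.05). Both calls were lost without the second Wild type control or either floxed control. Hnf4a had -0.43 and Cebpa 0.30. Of 42 plasma protein genes 1 fell (Ttr by 1.11) and 0 rose (limma; 2 higher at an unadjusted p under 0.05), and Alb had a difference of 0.15. None of 40 oxidative phosphorylation genes passed (limma; 1 higher and 2 lower at an unadjusted p under 0.05), with a median of -0.07. Of 33 kept cholesterol and fatty acid synthesis genes 7 rose and 1 met the shared rule. The count was 2 without the first floxed control, 3 without the second, 4 without the first Wild type control and 11 without the second YAP S127A Sox9 fl/+ library. The shared gene, Fads3, a desaturase relative, read 2.88, 2.88, 3.12 and 2.67 against 6.05, 7.32 and 8.72 and rose by 4.46 ± 0.35. Fasn, Acaca and Pnpla3 rose by 1.09, 0.98 and 1.34 without meeting the shared rule. Pkm, the pyruvate kinase isoform gene of non-hepatocytes and growing cells, rose by 1.98 ± 0.36 and was the sole call among 24 glycolytic genes (4.17%). Of 28 fatty acid oxidation genes 2 rose (7.14%), with a list median of -0.07. Both shares are below the 10.7% of all genes tested that rose. The 2 were Ppargc1a (1.14) and Vnn1, a pantetheinase and PPAR-alpha target (2.19 ± 0.32).

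**Figure D5:**
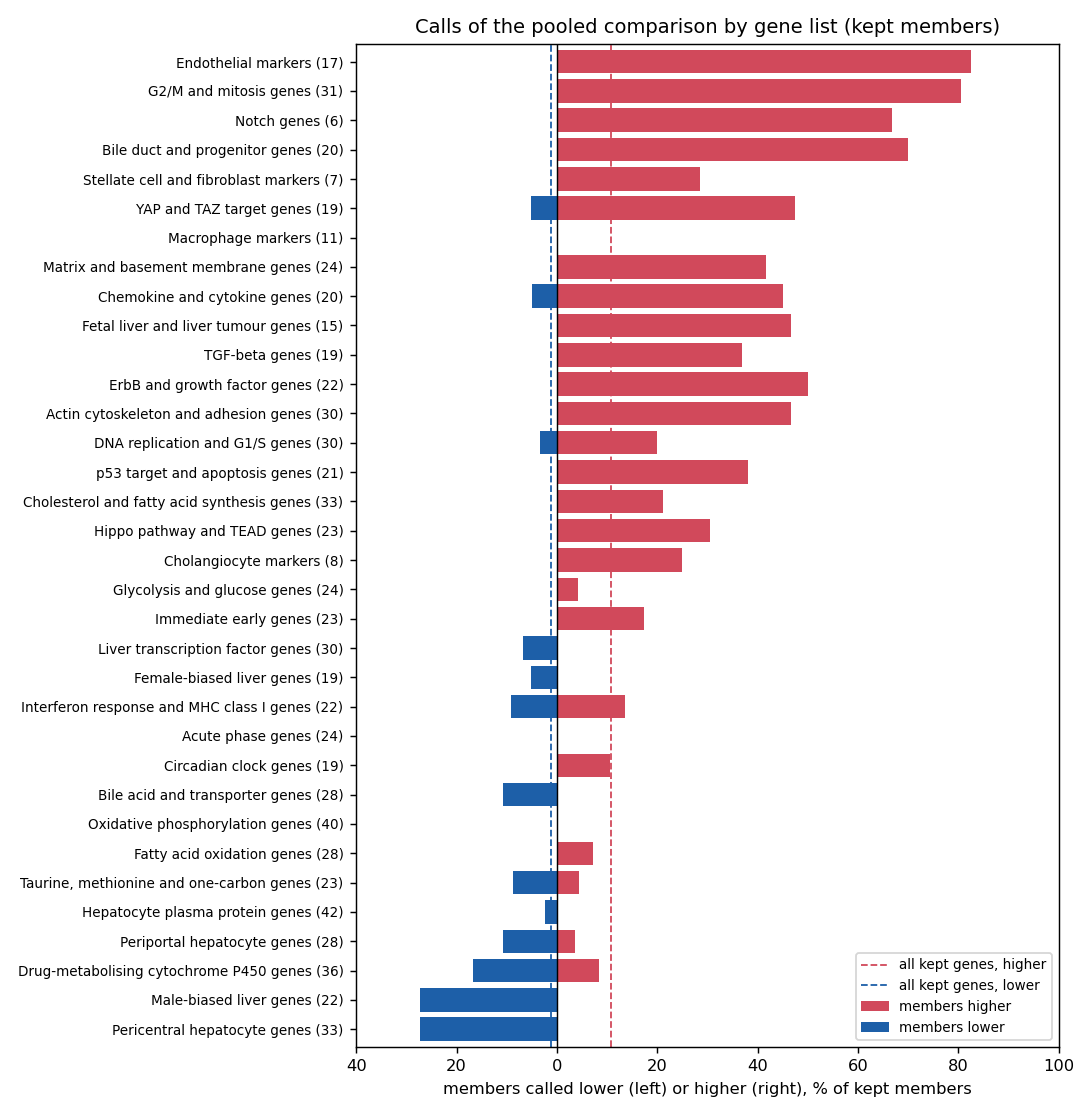
Share of the kept members of each gene list that rose (right) or fell (left) in the pooled comparison, in percent, with the number of kept members in brackets, lists ordered by median difference, and dashed lines at the shares over all genes, 10.7% and 1.25%. Endothelial markers (14 of 17) and mitotic genes (25 of 31) have the highest shares that rose, and pericentral (9 of 33) and male-biased genes (6 of 22, but 0 without either floxed control library) the highest shares that fell.

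Some shared genes were nearly as high in one activated group as in another. Among those with a change of at least 2 log2 and a mean of at least 4 log2 CPM in the activated libraries, the 8 with the narrowest span were Bmp4, Tnfaip3, Msrb3, Kifc3, Sh2d4a, Klhl13, Flt4 and Rhbdf1. Msrb3 read 4.06, 3.43, 3.92 and 3.57 in the controls and 5.77, 6.20 and 6.64 in the activated libraries, with group differences of 2.73, 2.69, 2.18 and 2.25. Kifc3, a minus-end directed kinesin, read 5.24, 5.36, 5.27 and 5.36 against 6.69, 7.96 and 8.27 and rose by 2.54 ± 0.23, and Rhbdf1, an inactive rhomboid protease, by 2.56 ± 0.21. Flt4, a VEGF receptor, is 1 of the endothelial markers.

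Other genes were called in the pooled fit although the groups differed. Smpd3, a neutral sphingomyelinase, differed by 0.37 and -0.47 in the YAP S127A groups and by 3.38 and 4.07 in the Mst groups, so its pooled rise of 1.84 ± 0.56 describes the Mst groups. Osbpl3, an oxysterol-binding protein relative, gave 0.15, 1.35, 3.00 and 4.51, and the serpin Serpinb6b 0.69, 0.91, 3.23 and 4.25. Klf6, a zinc finger factor induced by injury, met the shared rule with 1.10, 1.78, 3.72 and 4.48. Lpin1, a phosphatidate phosphatase, gave 0.51, -1.07, -3.00 and -2.68. In each of these 5 the Mst groups lay farther from control than the YAP S127A groups, and H19 was the one of the 8 widest with its largest difference in a YAP S127A group. A total of 18 genes passed both tests.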

How the data were processed

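Values were deposited by the authors as log2 CPM for 16116 gene symbols, per the file headers, from the Ion AmpliSeq mouse transcriptome panel. Not given in the sources used here are how reads were aligned and counted, the build, and how values were adjusted afterwards. Labels gave 6 groups of 2 libraries. A gene was kept if 2 or more libraries had a log2 value of 1 or more (10681 genes). The deposited values were fitted with limma 3.58.1 in R 4.3.3, with experiment and activation as terms and a trended prior variance, and a gene was called where its two-sided p, adjusted by Benjamini-Hochberg over all kept genes, was under 0.05. Differences among the 4 activated groups were tested with an F-test in a fit of 6 group means. The fit was tested on simulated data. Members and gene lists were chosen with earlier results of these data known.

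Genes named by rule were Sox9, Stk4, Stk3, Yap1, Ctgf, Cyr61, and up to 15 of the largest shared rises and of the largest shared falls. These rises and falls had a mean log2 of 4 or more in the higher arm and were ordered by the smallest group difference. Only 6 shared falls reached that mean, and all were named. The rule added up to 4 shared genes per list, the 8 most even and the 8 widest genes and leading markers, 82 genes in all. Other members were named to describe their lists, after their values were seen. The values of 1 gene named by the rule are not reported here. Promoter windows of 300 bases came from RefSeq (GRCm38.p6). Alternatives were other filters, pseudocounts, scalings and models and each library left out. Each experiment alone and an endothelial term were chosen after seeing the data.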

Additional observations from a re-analysis of the deposited data

Results flagged for a closer look

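For 15 genes named by the rule or held by a gene list, the differences of the 4 activated groups from control were unequal by limma's F-test, with adjusted p over all kept genes. They were Sox9 (2.08e-05), Egr1 (0.000113), Ntrk2 (0.000655), Smpd3 (0.00123), H19 (0.00343), Osbpl3 (0.00437), Klf6 (0.0116), Serpinb6b (0.0116), Csf1 (0.0124), Cyp4a31 (0.0228), Lpin1 (0.0255), Slc1a2 (0.0329), Gdf15 (0.0329), Fos (0.033) and Oat (0.0459). Sox9 was above control in both Sox9 fl/+ groups and below it in both Sox9 fl/fl groups. For Smpd3, Osbpl3, Klf6, Serpinb6b, Lpin1, Slc1a2 and Oat the Mst groups lay farthest from control, and for H19 the YAP S127A Sox9 fl/fl group did. Ntrk2, a neurotrophin receptor, was below control in the YAP S127A groups (-1.72 and -1.99) and above it in the Mst groups (4.77 and 4.38), and so was the stress cytokine Gdf15 (-0.34 and -1.84, against 1.72 and 2.22). Cyp4a31 was above control in the YAP S127A Sox9 fl/fl group alone (2.28).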

How the results depend on the processing

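Depth is unknown and the deposited values were adjusted, so counts of calls depend on the fit. Against 1141 higher and 133 lower calls, refitting gave new totals: 753 and 353 with library medians made equal, 661 and 350 with quantile normalization, 612 and 58 with group means as units, 159 and 8 in the YAP experiment alone, 668 higher in the Mst experiment alone, and 3 and 6 with the endothelial term. Deviations of the first libraries from their group means correlated at -0.117 to -0.0627 between groups of the YAP experiment. In the Mst experiment they correlated at -0.644 to -0.315, so the first libraries of its groups tended to deviate in opposite directions. The source of that pattern was not tested. A replicate block gave 864 higher and 85 lower. Shared rises (217) became 100 with log2(CPM + 5), 143 with quantile normalization, 1133 with no size or separation condition (called and of 1 sign), 43 at a threshold of 2 and 92 when each group was called on its own. Shared falls (12) became 3, with log2(CPM + 5), 127, 1 and 1. The F-test's 45 became 10 with no filter on low values and 14 with no variance trend.

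Leaving out 1 library gave 696 to 1641 higher, 48 to 208 lower, 182 to 303 shared rises, 11 to 22 shared falls and 25 to 115 by the F-test. Without the first floxed control the counts were 696, 48 and 25 by the F-test. Without the second floxed control 66 were lower, and without the second YAP S127A Sox9 fl/+ library 208 were lower, 22 were shared falls and 27 passed the F-test. The F-test gave 115 without the first YAP S127A Sox9 fl/+ library, and 28 without the first Wild type control or the first YAP S127A Sox9 fl/fl library. Of 72 called genes among those named by rule, 6 lost the call without some library, among them Smpd3, Osbpl3, Lpin1, Dcn and Rgs5. With the endothelial term the sign turned for Sdr9c7 (0.2249), Eng (-0.0122), Clec4g (-0.7425), Aqp1 (-0.3337), Serpinb6b (-0.09869), Lpin1 (0.6044), Dcn (-0.5956) and Rgs5 (-0.07288), and in the YAP experiment alone for Smpd3 (-0.05457). Eng and Clec4g are members of the endothelial sum, so that term holds their own values and their turn in sign says little. The cause of the turns was not tested.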

Other observations

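Of the 217 shared rises, 68 were on a gene list and 149 on none. Genes among the 149 were picked here after their values were seen. Several are commonly expressed in endothelium: Nrp2, a semaphorin and VEGF coreceptor, rose by 3.17 log2, Igfbp7 by 3.24, the fatty acid transporter Cd36 by 3.01, the endocytic adaptor Dab2 by 3.02, the lipase anchor Gpihbp1 by 2.45 and the adhesion molecule Esam by 1.79. They rose in the libraries in which the endothelial markers were higher, and the part of endothelial RNA in these values cannot be told apart from that of the hepatocytes.

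Among the others, the matrix protease Adamts5 rose by 4.13, the tetraspanin Cd63 by 3.06, and Serpina7, a thyroxine carrier that hepatocytes release into plasma, by 3.38. When each of the 4 groups had to pass the test on its own against control, 92 genes were higher and 1 lower, the sulfotransferase gene Sult5a1, whose pooled difference was -2.98.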
